A study of Glycine max with 8 samples.

Results

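Open chromatin of flower was compared with open chromatin of developing seed in soybean (Glycine max, cultivar Williams 82, the source of the reference genome) through MNase hypersensitive sites. These are stretches that micrococcal nuclease, an enzyme that cuts exposed DNA, releases as short fragments when nuclei are digested only lightly. The sites compared were the lines of the deposited lists of 4 libraries, 258213 of the 442104 sites listed for the 8 libraries of the series. Flower 1 held 50078 of them, flower 2 held 62094, seed 1 held 82798 and seed 2 held 63243. Flowers were taken at stage R1, the beginning of bloom, from plants in an experimental field. Seeds were taken at stage R4, the full-pod stage. Their plants stood in a greenhouse, lit for 12 h a day at 28 °C and kept at 25 °C in the dark. The labels of the seed samples give this stage, whereas the growth text attached to the other samples gives R1 for seed, and the seed labels were followed. Tissue, stage and growing place therefore differ together between the groups and cannot be told apart. Whether both libraries of a tissue came from different plants is not said in the labels, so a p-value reflects library-to-library spread alone, possibly of technical origin.

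A region that a nuclease can reach is usually free of tightly packed nucleosomes, and in plants such regions lie mostly at promoters and at distal regulatory elements. Many are open in most organs, while others open in one organ or developmental phase as transcription factors of that phase bind. Soybean chromosomes have gene-rich arms and a long, repeat-rich middle with few genes, so the place of a region along its chromosome gives a first hint of its surroundings. Flower and seed follow each other in reproduction: the ovules in the flower become the seeds, and the seed combines maternal seed coat with an embryo and endosperm of the next generation. A whole flower or seed mixes many cell types, and a region open in a small share of the cells and a region that is weakly open in all of them cannot be told apart in such lists.

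The lists differed in length and in how closely replicates matched. They covered 9.59 and 12.4 Mb in flower and 17.1 and 11.7 Mb in seed. Overlap between libraries was measured as a Jaccard index in base pairs, which divides the length found in both by the length found in at least 1 of them. It was 0.417 for the flower pair and 0.380 for the seed pair. Between tissues it was 0.303 for flower 1 with seed 1, 0.344 for flower 2 with seed 1, 0.230 for flower 1 with seed 2 and 0.265 for flower 2 with seed 2. Same-tissue pairs thus exceeded different-tissue pairs by 0.113 on average, and the true pairing gave the highest value of the 3 that can be formed (p = 0.333 by an exact one-sided permutation test, which cannot go lower here). Seed 1 lay closer to both flower libraries than seed 2 did, and its index with flower 2 came near its index with seed 2. The median site width was 167 and 172 bp in flower against 183 and 164 bp in seed, so the groups overlapped and the mean difference of -4 bp was within the spread between libraries (exact two-sided permutation p = 1). Without seed 1 the difference turned to 5.5 bp.

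Regions found in both libraries of a tissue are called reproducible here, and are the stretches of at least 20 bp that the 2 libraries have in common. There were 37701 in flower and 47979 in seed. Shorter intersections, 382 in flower and 582 in seed, were dropped, and 496 and 794 of those kept were 20 to 39 bp long. Each region was then placed by what it overlapped in the other tissue. In flower, 57.1% of the regions (21510) met a reproducible seed region, and 28.1% (10581) met a seed site but no reproducible seed region. The other 14.9% (5610, 95% Wilson interval 14.5 to 15.2) met no site of either seed library. In seed, 45.2% (21685) met a reproducible flower region, and 23.7% (11370) met a flower site but no reproducible flower region. The other 31.1% (14924, interval 30.7 to 31.5) met no flower site. When the regions of both tissues were merged, 20839 of 63324 merged regions (32.9%) held both, 16191 held flower alone and 26294 held seed alone. As a share of the regions, the class without a counterpart was larger in seed than in flower on 20 of 20 chromosomes.

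The number of seed regions without flower moved with the length of the lists. When each of the 4 libraries was held to its 50078 highest-scoring sites, the length of the shortest list, 8213 flower regions met no seed site (24.1% of 34075) and 8585 seed regions met no flower site (26.9% of 31894). The number of seed regions without flower then was close to the number of flower regions without seed, and its share was the higher on 17 of 20 chromosomes. The order of the shared class turned, with 47.7% of flower and 50.8% of seed regions meeting a reproducible region of the other tissue. Whether a position missing from a list is closed or fell short of the authors' threshold was not tested, and neither the threshold nor the number of reads is known.

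**Figure D1:**
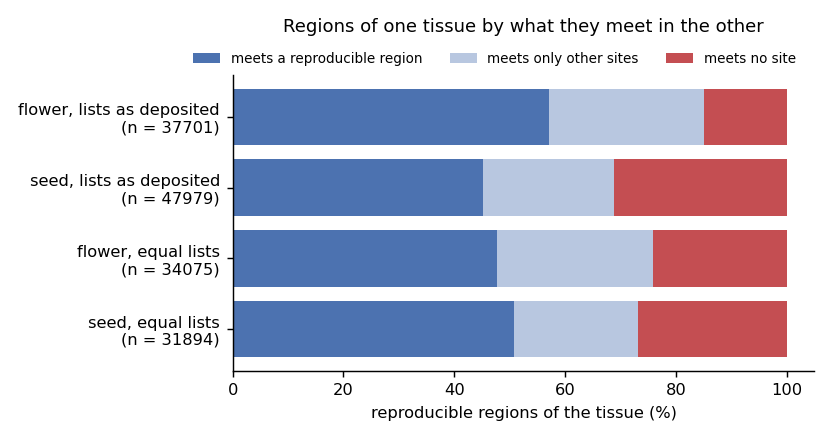
Share of the reproducible regions of each tissue (horizontal axis, percent) that met a reproducible region of the other tissue, met only other sites of it, or met no site of it, for the lists as deposited and for lists of 50078 sites each. The class that met no site was 14.9% in flower and 31.1% in seed with the deposited lists, and 24.1% and 26.9% with equal lists.

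The middle class rested mainly on seed 1. Of the 10581 flower regions that met a seed site but no reproducible seed region, 9045 (85.5%) were met by seed 1 alone and 1350 (12.8%) by seed 2 alone. With 50078 sites in both seed libraries the split was 6932 against 2562, so that seed 1 was again the library with more flower counterparts. Of all flower regions, 81.5% were met by seed 1 and 61.1% by seed 2, and with equal lists 68.4% and 55.6%. The seed regions showed a smaller imbalance between flower libraries: 7986 were met by flower 2 alone and 3127 by flower 1 alone, and 3989 and 2980 with equal lists. Leaving out 1 library, so that every site of the remaining library stands as a region, moved the counts. Without seed 1, 14655 flower regions met no seed site, and without seed 2, 6960 did, against 15661 without flower 1 and 11440 without flower 2. The seed regions without flower numbered 26383 without seed 1, 33766 without seed 2, 18051 without flower 1 and 22910 without flower 2.

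Regions shared by flower and seed were wide and were nearly always listed in leaf as well. The median width of the shared regions was 170 bp in flower and 179 bp in seed, against 118 and 125 bp for regions without a counterpart. Only 0.891% of the flower regions without seed and 1.14% of the seed regions without flower were wider than 300 bp, against 10.6% and 9.92% of the shared ones. A wider region meets other sites more easily, so these widths describe the classes and are no independent result. Leaf and root lists play no part in these classes. The root lists were far smaller, with 15185 and 18957 sites of median width 69 and 67 bp. They covered 1.33 and 1.56 Mb, against 17.3 and 16.3 Mb for the leaf lists. Shares met by root and by leaf are therefore not comparable with each other, and absence from root is weak evidence of closed chromatin. Of the merged shared regions, 97.3% met a leaf site and 92.6% met both leaf libraries, and 25.3% met a root site. The 556 merged regions (2.67%) that flower and seed shared while no leaf library listed them had a median width of 179 bp, against 237 bp for the others, and an outer-to-inner density ratio, defined with the positions below, of 2.82 against 2.997 over the merged shared regions.

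Leaf met flower regions more often than seed regions outside the shared class. Within the shared class it met 97.1% of the flower and 97.2% of the seed regions. Over all reproducible regions it met 90.8% in flower and 81.2% in seed, and in the class that met only other sites 90.4% and 84.2%. Of the flower regions without seed, 67.5% met a leaf site (95% Wilson interval 66.3 to 68.7) and 47.3% met both leaf libraries. Of the seed regions without flower, 55.7% (54.9 to 56.5) and 35.0% did. Counted over every site of a library that met no site of the other tissue, the share was 49.5% in flower 1, 48.6% in flower 2, 45.1% in seed 1 and 41.5% in seed 2. Both flower libraries lay above both seed libraries, with means of 49.1% ± 0.652 (SD, n = 2) and 43.3% ± 2.54 (SD, n = 2). With equal lists the shares were 77.7% for flower and 65.6% for seed. The order turned when a flower library was left out, at 48.6% against 60.4% without flower 1 and 49.5% against 65.7% without flower 2. Every site of the remaining flower library, reproducible or not, then counts as a flower region, and only that library excludes seed regions. What moved the order was not tested. Root sites were met by 3.89% of the flower and 6.61% of the seed regions without a counterpart, against 16.5% and 15.1% over all reproducible regions. Of the regions without a counterpart, neither leaf nor root met 1777 of 5610 in flower and 6297 of 14924 in seed. Over all reproducible regions the counts were 3306 of 37701 and 8495 of 47979.

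The classes were distributed differently along the chromosomes. The outer part of a chromosome is taken as the outer 20% at each end and the inner part as the rest, over a length set by the last site end in any library, and the outer-to-inner ratio divides regions per Mb in the outer part by regions per Mb in the inner part. Shared regions had a ratio of 3.003 by the flower regions and 2.99 by the seed regions. Flower regions without seed were more concentrated towards the ends, with a ratio of 3.81, and seed regions without flower less, with a ratio of 2.31. Regions that met only other sites of the other tissue stood at 3.72 in flower, close to the flower regions without seed, and at 2.80 in seed. The higher ratio was thus shared by the flower regions that did meet a seed site but no reproducible seed region. With equal lists the 3 classes, from shared to without, had flower ratios of 2.91, 3.65 and 3.79, and seed ratios of 2.90, 2.70 and 2.23. On the log2 scale the 2 classes without a counterpart differed by 0.72. As a description over chromosomes, the ratio of flower regions without seed exceeded that of seed regions without flower on 20 of 20, with a log2 difference from 0.32 on chromosome 6 to 2.36 on chromosome 4 (median 0.90). Seed regions without flower lay below the shared seed regions on 20 of 20 chromosomes, and flower regions without seed above the shared flower regions on 18 of 20, the exceptions being chromosomes 6 and 11.

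**Figure D2:**
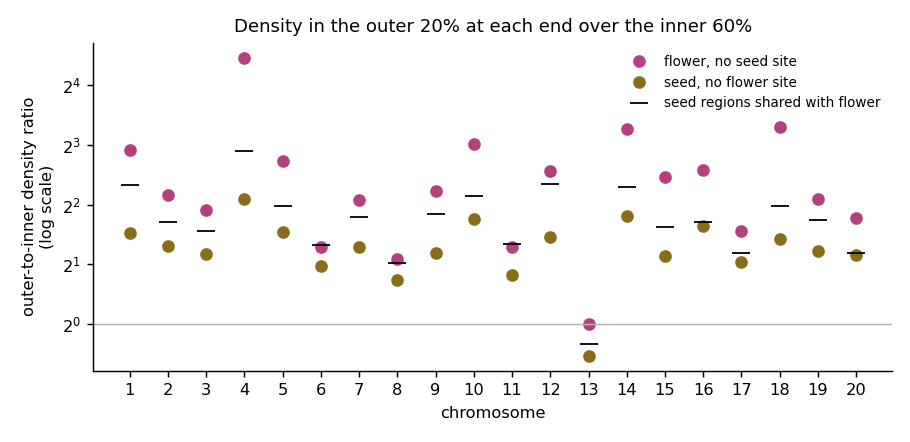
Outer-to-inner density ratio per chromosome (vertical axis, log scale) for flower regions without a seed site, seed regions without a flower site and shared seed regions (horizontal ticks). The flower point lies above the seed point on 20 of 20 chromosomes, and chromosome 13 is the one where the seed ratio falls below 1.

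The libraries gave the same order before any intersection. The ratio over all sites was 3.22 in flower 1 and 3.30 in flower 2 against 2.85 in seed 1 and 2.62 in seed 2. The log2 ratio averaged 1.70 ± 0.024 (SD, n = 2) in flower. In seed it averaged 1.45 ± 0.084 (SD, n = 2), a difference of 0.25 with both flower libraries above both seed libraries (exact two-sided permutation p = 0.333, the smallest that 2 against 2 allows). Among sites without the other tissue the ratios stood further apart, at 3.55 and 3.77 in flower against 2.53 and 2.26 in seed. Among sites met by the other tissue they came together, at 3.13 and 3.16 in flower and 3.11 and 2.93 in seed. Such sites lie at overlapping positions in both tissues, so their ratios are close by construction.

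Along the way from the chromosome end to its middle, the share of seed regions without flower was higher further in and that of flower regions without seed lower. In steps of 5% of the chromosome length from the nearer end, the seed share was 27.9% in the first and 35.7% in the innermost, and the flower share 15.6% and 12.1%, with its lowest value, 10.7%, at 40 to 45%. The libraries taken singly showed it too: from the first step to the innermost, the share of sites without the other tissue went from 37.4% to 45.3% in seed 1 and from 37.6% to 46.5% in seed 2, and from 23.9% to 21.2% in flower 1 and from 26.7% to 20.7% in flower 2. By density, shared flower regions fell from 44.1 to 7.43 per Mb over the same distance, flower regions without seed from 12.5 to 1.40 per Mb, and seed regions without flower from 25.7 to 6.47 per Mb. In the innermost step seed regions without flower were thus nearly as dense as the regions shared with flower, at 7.398 per Mb by the seed regions. With equal lists the inner part again held the higher seed share (29.95% against 25.2% in the outer part) and the lower flower share (21.8% against 25.1%).

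**Figure D3:**
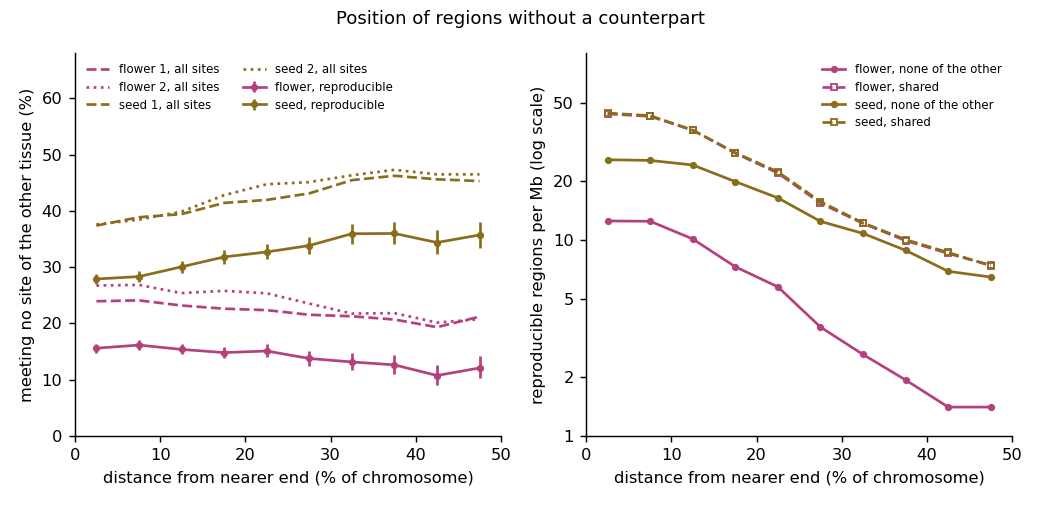
Left, share of regions or sites that met no site of the other tissue (percent) against distance from the nearer chromosome end (percent of chromosome length), for reproducible regions with 95% Wilson intervals and for the sites of each library. Right, reproducible regions per Mb (log scale) for the shared class and the class without a counterpart. The 2 seed libraries rise towards the middle to 45.3% and 46.5%, and the 2 flower libraries fall to 21.2% and 20.7%.

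The difference in position held at every width and score rank examined. Flower regions without seed had ratios between 3.60 (300 bp or more, 51 regions) and 4.05 (150 to under 200 bp), and seed regions without flower between 1.41 (300 bp or more, 171 regions) and 2.45 (100 to under 150 bp). By the lower of a region's score percentiles, the flower ratios ran from 3.06 to 4.21 and the seed ratios from 1.48 to 2.46. Flower regions without seed had a ratio of 3.60 where no leaf library met them and 3.93 where both did. The seed regions without flower had 2.05 and 2.60. Regions absent from leaf were in both tissues less concentrated at the ends, and at each leaf status the flower value was the higher.

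**Figure D4:**
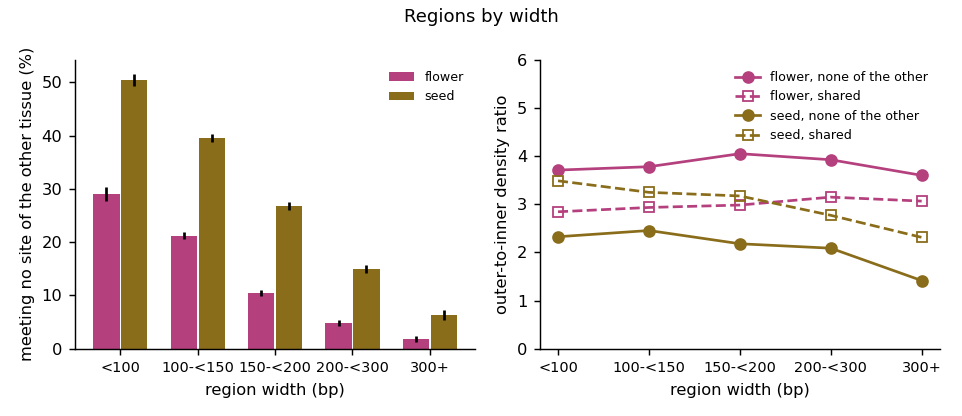
Left, share of reproducible regions that met no site of the other tissue (percent, with 95% Wilson intervals) by region width in bp. Right, outer-to-inner density ratio by width for the class without a counterpart and for shared regions. The seed share falls from 50.5% under 100 bp to 6.26% at 300 bp or more and the flower share from 29.1% to 1.76%, while the flower ratio stays above the seed ratio in the 5 width classes. Wider regions meet other sites more easily, so the fall in the shares is partly built in.

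Chromosomes differed little in the share of regions without a counterpart. The flower share was highest on chromosome 11 at 17.3% (347 regions) and chromosome 13 at 16.7% (470 regions), and lowest on chromosome 7 at 12.3% and chromosome 1 at 13.2%. The seed share was highest on chromosome 14 at 34.3% (735 regions) and chromosome 7 at 33.4% (801 regions), and lowest on chromosome 13 at 28.0% and chromosome 17 at 28.3%. Chromosomes 7 and 13 thus stood at opposite ends in the 2 tissues. Chromosome 13 was also where the density of flower regions without seed was even between outer and inner parts, at a ratio of 1.00, and where seed regions without flower were denser in the inner part, at 0.693. Shared regions there stood at 0.80 in both tissues. Chromosome 4 lay at the other extreme. Its ratio was 21.9 for flower regions without seed (250 regions) and 4.26 for seed regions without flower (780 regions). Its shared regions also had the highest ratios of any chromosome, at 7.55 in flower and 7.43 in seed.

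At the scale of 1 Mb, windows with more seed regions without flower than flower regions without seed made up 892 of 954 with the lists as deposited, against 23 with more of flower. With equal lists they numbered 569 against 295, so the tally depended on the lengths of the lists. The window of chromosome 11 that starts at 8000001 had the most flower regions without seed and the widest margin in favour of flower. It held 31 of them among 133 flower regions, and 15 seed regions without flower among 99 seed regions. The next windows held 28 on chromosome 11 from 4000001, 28 on chromosome 13 from 37000001, 27 on chromosome 13 from 34000001 and 25 on chromosome 1 from 52000001, beside 25, 26, 26 and 28 seed regions without flower. For seed, the window of chromosome 10 from 49000001 held 46 regions without flower among 142, followed by 44 on chromosome 7 from 4000001, 44 on chromosome 16 from 1000001, 42 on chromosome 1 from 53000001 and 42 on chromosome 4 from 3000001. These 5 seed windows lay in outer parts of their chromosomes, where regions of every class are dense. In the order named, 23.3%, 18.8%, 22.6%, 19.1% and 15.8% of the flower regions in the flower windows met no seed site. Over all flower regions the share was 14.9%. In the seed windows, 32.4%, 36.4%, 31.4%, 28.8% and 32.8% of the seed regions met no flower site, against 31.1% over all.

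Regions without a counterpart lay at different distances from their neighbours in the 2 tissues. The distance to the nearest shared region, which is the same reference set for both tissues, had a median of 6194 bp for flower regions without seed and 9105 bp for seed regions without flower. In the outer parts alone the medians were 5955 and 7747 bp, and in the inner parts 6964 and 12566 bp. Within the tissue's own set, the next region lay 2345 bp away for flower regions without seed, nearer than the 3324 bp of shared flower regions, and 2763 bp away for seed regions without flower, against 2505 bp for shared seed regions. Of the flower regions without seed, 23.5% lay less than 200 bp from a seed site, and 55.0% within 1 kb. Seed regions without flower lay that near a flower site in 13.4% and 36.3% of cases, and 14.0% had no flower site within 10 kb, against 3.14% of the flower regions without seed. The seed lists were the longer ones. With equal lists the shares within 200 bp were 14.2% for flower and 11.03% for seed, and the medians to the nearest shared region 9057 and 12769 bp.

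Following the merged regions in order along each chromosome, seed regions without flower formed longer uninterrupted runs. They were also the more numerous class, at 14924 against 5610 flower regions without seed. Of the seed regions without flower, 21.3% stood in runs of 3 or more, against 5.10% of the flower ones. With equal lists the classes held 8585 and 8213 regions, and the shares were 13.8% against 11.7%. Whether the run lengths follow from the class sizes was not tested. The longest seed run held 12 regions on chromosome 6 from 34492521 to 34917236, a stretch of 425 kb in the inner part where no flower region was reproducible. Their widths were 55 to 189 bp, and 6 of the 12 met leaf. A run of 9 spanned 485 kb of chromosome 12 from 12051209 to 12536167, of which 1 region met leaf, and the first of 5 runs of 8 regions spanned 398 kb of chromosome 2 from 29314319 to 29711918. The longest flower run was compact: 6 regions within 2826 bp on chromosome 12 from 24280842 to 24283667, of 85 to 180 bp, 1 of them met by leaf. Flower had 4 runs of 5 regions, of which the first in chromosome order were on chromosome 4 from 3755316 to 3782928, with 5 of 5 regions met by leaf, and on chromosome 6 from 10996119 to 11005906, with 2 of 5 met by leaf.

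The score that the authors gave each site was used only as a rank within its own list. Within each list, sites without the other tissue became rarer as the rank rose. In the lowest score decile they made up 41.4% of flower 1, 46.2% of flower 2, 66.1% of seed 1 and 59.7% of seed 2. In the highest decile they made up 4.73% of flower 1 (95% Wilson interval 4.18 to 5.36), 4.49% of flower 2 (4.01 to 5.04), 9.66% of seed 1 (9.04 to 10.3) and 18.2% of seed 2 (17.3 to 19.2). The flower libraries nearly coincided at the top, while the seed libraries, whose lengths differ more, did not. At the level of regions, the median percentile of flower regions without seed was 42.1 in flower 1 and 46.9 in flower 2, against 64.9 and 73.2 for shared flower regions. That of seed regions without flower was 48.1 in seed 1 and 49.6 in seed 2, against 79.0 and 65.4 for shared seed regions. The classes were set by presence in these same lists, so the medians describe the classes and are no independent result.

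**Figure D5:**
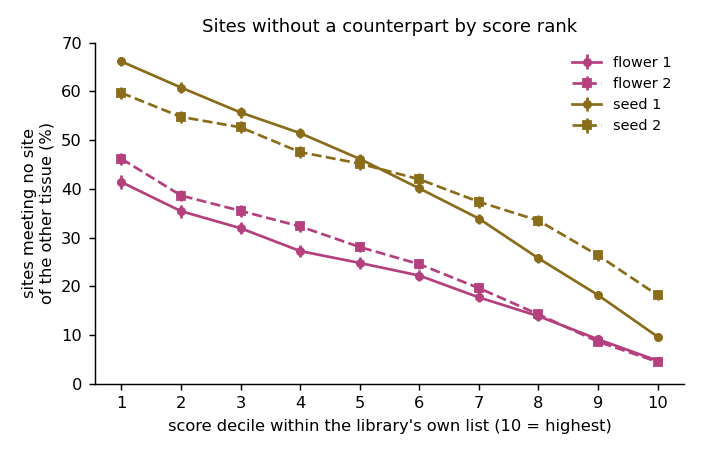
Share of the sites of each library that met no site of either library of the other tissue (percent, with 95% Wilson intervals) by score decile within the library's own list. The share falls from between 41.4% and 66.1% in the lowest decile to between 4.49% and 18.2% in the highest.

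A small set without a counterpart ranked high in both libraries. Above percentile 90 in both lists stood 73 flower regions without seed and 296 seed regions without flower. These were 1.30% and 1.98% of their classes, against 7.38% of all flower and 6.33% of all seed regions. They made up 2.62% of the 2782 flower regions and 9.74% of the 3039 seed regions that ranked so high. Leaf met 59 of the 73 and 251 of the 296. Root met 9 of the 73 and 102 of the 296, against 16.5% of all flower and 15.1% of all seed regions. Over the classes without a counterpart, root met 3.89% in flower and 6.61% in seed. The leaf shares were 80.8% in flower, below the 90.8% of all flower regions, and 84.8% in seed, near the 81.2% of all seed regions. No leaf site was met by 14 of the flower and 45 of the seed regions.

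The 5 highest-ranking flower regions without seed were narrow, apart from 1 of them. The first lay at 17087890 to 17088027 on chromosome 10 (138 bp), in the inner part, at percentiles 99.97 and 99.91 of flower 1 and flower 2. It met 1 leaf and 2 root libraries, and the nearest seed site was 74067 bp away. The second lay at 14534736 to 14534867 on chromosome 20 (132 bp), at percentiles 99.7 and 99.8, and was met by both leaf and both root libraries. The third, at 54179611 to 54179902 on chromosome 18, spanned 292 bp, met both leaf libraries and no root library, and lay 775 bp from a seed site. The fourth, at 3092416 to 3092534 on chromosome 13 (119 bp), met no leaf library and 1 root library. The fifth, at 5017546 to 5017677 on chromosome 18 (132 bp), met both leaf libraries and lay 17270 bp from the nearest seed site. By width, the longest flower regions without seed were 555 bp on chromosome 17 from 14691505, 535 bp on chromosome 10 from 7753490 and 523 bp on chromosome 2 from 39006730, each met by both leaf libraries. The first of these had a seed site 12 bp from its edge and left the class when sites within 200 bp counted as meeting. It also left the class without flower replicate 2, when the whole flower 1 site of 681 bp stands as the region.

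The 5 highest-ranking seed regions without flower were 148 to 184 bp wide and were each listed in both leaf libraries, and 4 of the 5 in both root libraries. They lay at 9986264 to 9986431 on chromosome 15, 4357015 to 4357189 on chromosome 4, 11475717 to 11475890 on chromosome 14, 30146092 to 30146275 on chromosome 19 and 39186098 to 39186245 on chromosome 12, with percentiles of 99.84 or more in both seed lists. These widths are those of the part common to both libraries. In the same order, the seed 1 sites that hold these regions were 172, 453, 174, 240 and 280 bp wide. The seed 2 sites were 173, 175, 181, 184 and 148 bp wide. The one on chromosome 14 had no flower site within 74603 bp, and the one on chromosome 12 had one 155 bp away. The one on chromosome 19, in the inner part, was the one that no root library met. By width, the longest were 753 bp on chromosome 7 from 31241531, 648 bp on chromosome 11 from 34414318 and 543 bp on chromosome 15 from 47404656, at percentiles between 98.0 and 99.9. The first was 753 bp in seed 1 and 761 bp in seed 2, and both leaf libraries listed it.

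Among the shared regions, 488 (2.34%) stood above percentile 90 in all 4 lists. The region with the highest lowest rank lay at 7359306 to 7359552 on chromosome 13, where the sites were 233, 232, 248 and 253 bp wide in flower 1, flower 2, seed 1 and seed 2. It held the first or second score of each list, and leaf and root listed it in both libraries. The next were a region of 1241 bp at 5356265 to 5357505 on chromosome 19, one of 3489 bp at 19588801 to 19592289 on chromosome 15, one of 1127 bp at 23596296 to 23597422 on chromosome 17 and one of 242 bp at 20657859 to 20658100 on chromosome 19. The last was listed at 231 bp in flower 1 and 242 bp in seed 2 but within sites of 626 bp in flower 2 and 644 bp in seed 1, so its width differed more within tissues than between them.

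The shared regions were also compared site by site. Of the merged shared regions, 18663 (89.6%) held exactly 1 site in each of the 4 libraries. Such sites overlap by the way they were chosen, so their midpoints are close by construction and are given as a description. The midpoints differed by a median of 26 bp between the flower libraries and 29.5 bp between the seed libraries. Between tissues the medians were 31.5 bp for flower 1 with seed 1, 29.5 bp for flower 2 with seed 1, 39 bp for flower 1 with seed 2 and 36.5 bp for flower 2 with seed 2. Positions in seed 1 thus lay as close to flower 2 as to seed 2. Median widths were 202 bp in flower 1, 222 bp in flower 2, 257 bp in seed 1 and 202 bp in seed 2, again with seed 1 apart from seed 2. In 4940 regions (26.5%) both seed sites were wider than both flower sites, in 2578 (13.8%) both flower sites were wider, and in 59.7% the widths overlapped. By pairs of libraries, the lean towards wider seed sites appeared against seed 1, where flower 1 was the wider in 28.1% and flower 2 in 35.1% of the regions. Against seed 2 it did not, with flower 1 the wider in 49.9% and flower 2 in 57.4%.

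A few shared regions had clearly different widths. Mean width differed by over 2-fold in 4.60% of the 18663, with 261 wider in flower and 597 wider in seed. The largest ratio towards flower was at 10626939 to 10627285 on chromosome 11, with sites of 322 and 874 bp in flower against 124 and 144 bp in seed. It was followed by 36849910 to 36850297 on chromosome 12 (550 and 388 bp against 149 and 115 bp) and 4859602 to 4859862 on chromosome 6 (261 and 438 bp against 100 and 103 bp). In each of these 3 both flower sites were wider than both seed sites, and their flower percentiles were 87.0 or more against 42.7 or less in seed. Towards seed, the largest ratio was at 32707975 to 32708238 on chromosome 11, with 107 and 100 bp in flower against 937 and 295 bp in seed. The next lay at 43700715 to 43701190 on chromosome 7 (107 and 103 bp against 476 and 513 bp) and at 5018229 to 5018646 on chromosome 14 (108 and 164 bp against 709 and 433 bp). At the first of these the seed replicates themselves differed, 937 against 295 bp, whereas at chromosome 7 the replicates were close in both tissues.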

How the data were processed

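Ground tissue was fixed with formaldehyde at 1% for 10 min. The powder weighed 1 g for flower, seed and root and 0.5 g for leaf. Nuclei were digested with micrococcal nuclease, and DNA under 100 bp was sequenced, per the labels' protocols. The submitters' processing notes name Trimmomatic 0.36 for reads and BWA 0.7.15-r1140 for alignment. Not given in the sources used here are the genome build, the read depth, and the caller of the sites with its threshold. The authors deposited 1 list per library with chromosome, start and end, and for flower, seed and leaf a score per site whose scale is unstated. Starts were read as 0-based and are printed 1-based. In the root lists 479 and 649 repeated lines were removed.

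Overlap of 1 bp or more counted as meeting. Sets were computed with Python 3.11.15 and numpy 2.4.6, and the code was checked on made-up lists with known classes. Regions are not replicates, so tests were exact permutations over the 4 libraries, and the rest is description. Wilson intervals at 95% cover counting error only. The regions named by rank, width, width ratio, run, window and chromosome follow a written rule: 5 by the lower of their score percentiles and 3 by width for each class without a counterpart, 5 shared regions by the lowest of 4 percentiles, 3 by width ratio each way, the 3 longest runs per tissue with ties taken in chromosome order, 5 windows per tissue and 2 chromosomes at each end. The 14 and 45 high-ranking regions without leaf, and the profiles by position, width and score, were added after values had been seen. Classes and lists were chosen with earlier results of these data known. No genome sequence of the files' build was used here, so regions are named by position.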

Additional observations from a re-analysis of the deposited data

Results flagged for a closer look

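Sites without a counterpart moved in opposite directions along the chromosome in the 2 tissues. Within each library, the log2 outer-to-inner ratio of sites that met no site of the other tissue was set against that of the sites that did. The difference was 0.18 in flower 1 and 0.26 in flower 2, a mean of 0.22, and -0.30 in seed 1 and -0.38 in seed 2, a mean of -0.34. Both flower libraries thus moved towards the ends and both seed libraries towards the middle. The difference between these means was 0.56 (exact two-sided permutation p = 0.333, the smallest that 2 libraries against 2 allow). Sites met by the other tissue lie at overlapping positions, so their ratios are close by construction. The 0.56 is therefore not independent of the log2 difference of 0.25 over all sites and is no separate result.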

How the results depend on the processing

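The direction of the difference in position held under the alternatives run. The log2 outer-to-inner ratio of flower regions without seed minus seed regions without flower, 0.72, became 0.58 when only reproducible regions of the other tissue excluded a region and 0.91 with the outer 30% at each end, and ran from 0.51 to 0.76 with 1 library left out. Between libraries, the difference of 0.25 ran from 0.19 to 0.31 with 1 library left out. With the replicate block, which pairs libraries of the same number, it stayed at 0.25 with an exact p of 0.5, the smallest a block of 2 pairs allows, and the numbers were not taken as pairing (correlation of window deviations 0.074 over 955 windows). The median width difference of -4 bp ran from -13.5 to 5.5 bp with 1 library left out and turned without seed replicate 1. With equal lists it was -21.5 bp.

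Counts moved with list length and with the rule of exclusion. When only reproducible regions excluded, 16191 flower and 26294 seed regions lacked a counterpart. Seed regions without flower numbered 8585 with equal lists and 8411 with the upper 50% of each list by score, where merged shared regions fell from 20839 to 7245. With 1 library left out, flower regions without seed ran from 6960 to 15661 and seed regions without flower from 18051 to 33766. The share of flower and of seed regions without a counterpart that met leaf was 68.2% and 58.3% when sites within 200 bp counted as meeting, 70.8% and 59.5% with intersections of at least 100 bp, 89.8% and 78.5% with the upper 50% of each list, 77.7% and 65.6% with equal lists, and 82.5% and 67.997% when only reproducible regions excluded. With 1 library left out these shares ran from 48.6% to 82.7% in flower and from 41.5% to 65.7% in seed. Of the 16 named regions without a counterpart, 14 kept their class with the 200 bp distance, 15 without flower replicate 2, and 16 under the other 8 alternatives. Reads per library and the calling threshold are unknown, which limits what absence from a list shows.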
